A study of Mus musculus with 4 samples.

Results

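The subject is 9 genes that bind, make or break down retinoic acid: Crabp1, Crabp2, Aldh1a1, Aldh1a2, Aldh1a3, Cyp26a1, Cyp26b1, Rdh10 and Dhrs3. They were taken by symbol from the 37653 genes of the authors' FPKM table and joined by gene identifier to the 55335 genes of the count table, and each of the 9 matched a single row. Poly(A) RNA was sequenced from cultured spermatogonial stem cells (SSCs), the germ cells that renew themselves and sustain sperm production, derived from mice of postnatal day 10 on a C57/BL6*DBA2 background, passaged in standard medium and collected on a cell sorter. The study compared 2 libraries of wild-type (WT) cells with 2 of cells carrying the label Tex11PM/Y. Tex11, on the X chromosome, encodes a protein that works at meiotic crossovers in males. The labels do not define PM, and nothing in them tells whether libraries of 1 genotype stem from different cultures, clones or animals, so p-values measure only the spread between these samples. The Tex11PM/Y columns share a name and are called library A and library B. Paired WT values are given with replicate 1 first, and runs of 4 values follow the order WT replicate 1, WT replicate 2, library A, library B.

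Retinoic acid is made from retinol (vitamin A) in a reversible oxidation to retinal, carried out among others by Rdh10 and reversed by Dhrs3, and a final irreversible oxidation by the Aldh1a enzymes. The small carrier proteins Crabp1 and Crabp2 bind it in the cytoplasm, Crabp2 delivers it to nuclear receptors of the Rar and Rxr families, and the Cyp26 enzymes break it down. In the testis retinoic acid triggers the passage of spermatogonia from the undifferentiated to the differentiating state and later the entry into meiosis, and the cells around the germ cells both supply it and degrade it.

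The libraries held 19047148 and 19396809 counts in WT, 19306140 in library A and 19804951 in library B. A count of 0 allows up to 3 counts, a level of 0.149 to 0.169 CPM (read counts divided by the scaled library size). Tex11 itself had 66.4 and 126 CPM in WT, 22.7 in library A and 9.32 in library B, so the labelled genotypes did not overlap, but the log2 fold change of -2.59 (standard error 0.54) did not pass the threshold of 0.05 for the adjusted p over all genes (edgeR adjusted p = 0.884). The 15 markers of germ cells and undifferentiated spermatogonia were all detected in every library, at 0.302%, 0.347%, 0.442% and 0.359% of counts. Dazl, an RNA-binding protein of germ cells, had between 552 and 1194 CPM. The libraries differed far more in 19 fibroblast markers, at 1.47% and 0.477% of WT counts, 0.0565% in library A and 0.585% in library B. The labels name no marker for the sort.

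None of the retinoic acid genes passed the threshold for a difference between the genotypes. Of the 9 genes, 8 had enough counts to be tested, and 0 of the 8 had an edgeR adjusted p under 0.05, beside 0.0% of the 17262 genes tested. DESeq2 and limma called none of the 8 either. In the fit 3 of the 8 were higher in Tex11PM/Y (Crabp2, Aldh1a2 and Rdh10) and 5 were lower (Crabp1, Aldh1a1, Aldh1a3, Dhrs3 and Cyp26b1). Their median log2 fold change was -0.92, against 0.01 over all genes tested. At an unadjusted p under 0.05 in edgeR there were 2 of the 8, Crabp1 and Aldh1a1, both lower in Tex11PM/Y, beside 1.71% of all genes. In 3 genes, Crabp1, Aldh1a1 and Aldh1a3, both Tex11PM/Y libraries lay below both WT libraries in CPM, which 16.3% of all genes did, and in 1 of the 8, Crabp2, both lay above, which 16.1% of all genes did.

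**Figure D1:**
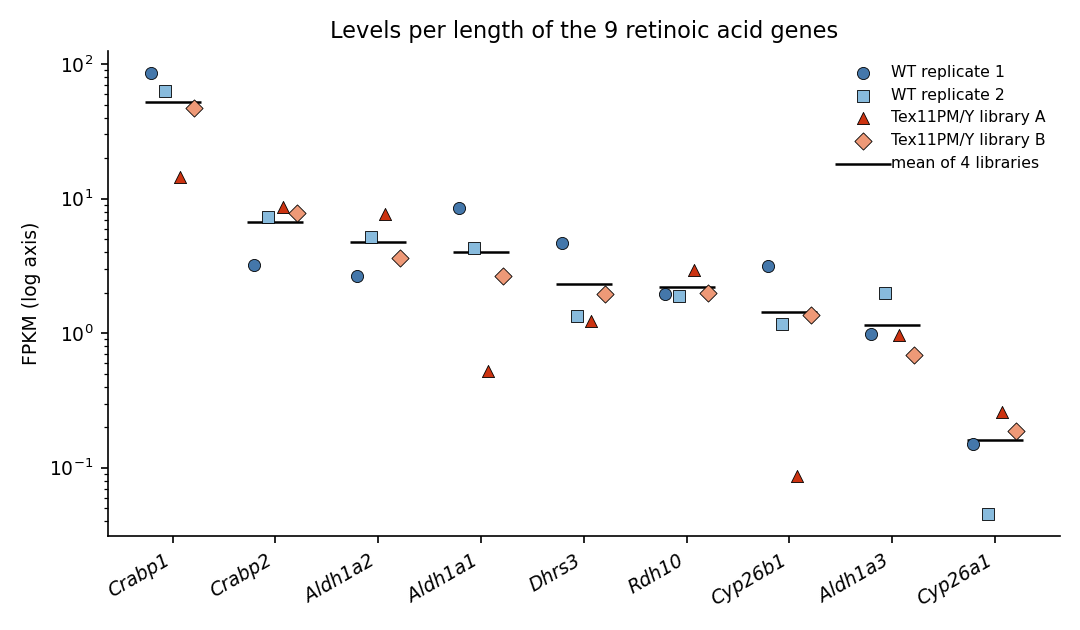
Level of each of the 9 genes in FPKM (scaled to transcript length and library size, log axis) in the 4 libraries, 1 point per library, with the mean of the 4 as a bar. Crabp1 lies above the other 8 genes, from 14.4 to 86.2 FPKM, Cyp26a1 has the lowest mean, and the widest spreads are those of Cyp26b1 and Aldh1a1.

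Per length of transcript, the order of the genes by mean FPKM over the 4 libraries was Crabp1 (52.5), Crabp2 (6.75), Aldh1a2 (4.80), Aldh1a1 (4.01), Dhrs3 (2.31), Rdh10 (2.19), Cyp26b1 (1.45), Aldh1a3 (1.16) and Cyp26a1 (0.160). Neighbours in this order had ranges that did not overlap at only 2 places, between Crabp1 and Crabp2 and between Aldh1a3 and Cyp26a1. Within libraries, Crabp2 exceeded Aldh1a2 in 4 of 4, though it lay below Aldh1a1 and Dhrs3 in WT replicate 1. Aldh1a2 exceeded Aldh1a1, Aldh1a1 exceeded Dhrs3 and Rdh10 exceeded Cyp26b1 in 3 of 4 each. Dhrs3 exceeded Rdh10 in only 1 of 4 libraries, and Cyp26b1 exceeded Aldh1a3 in 2 of 4. The middle of the order is therefore not resolved beyond the spread between libraries. Crabp1 alone made up 77.2% and 73.0% of the summed FPKM of the 9 genes in WT, against 39.2% in library A and 69.8% in library B.

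Of the 2 carriers, Crabp1 was the most abundant of the 9 genes in every library. Crabp1 (ENSMUSG00000032291.8, plus strand of chromosome 9, 54764748 to 54773110 in mm10) had 1646 and 1203 counts in WT, 274 in library A and 872 in library B. In FPKM these were 86.2, 62.8, 14.4 and 46.8, which placed it at percentiles 97.5, 96.4, 82.0 and 94.2 of the genes listed above 0 in each library. Both Tex11PM/Y libraries lay below both WT libraries, and library A lay furthest from the rest. WT libraries averaged 76.7 ± 22.4 CPM, and Tex11PM/Y libraries averaged 28.6 ± 20.97 CPM (SD, n = 2 per genotype). In the fit the log2 fold change of -1.42 had a standard error of 0.56 and a 95% interval from -2.74 to -0.10 (edgeR adjusted p = 0.884). The gap between the genotype means was 2.68-fold, and the Tex11PM/Y libraries themselves differed by 3.15-fold. Without library A the log2 fold change was -0.82, and without library B it was -2.52 and passed the threshold (edgeR adjusted p = 0.0124), in fits that each leave 1 Tex11PM/Y library, assumed to vary like the WT pair.

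Crabp2 (ENSMUSG00000004885.5, plus strand of chromosome 3, 87948666 to 87953376), the carrier that hands retinoic acid to its receptors, was higher in both Tex11PM/Y libraries than in WT, without passing the threshold. Its counts were 78 and 163 in WT, 195 in library A and 176 in library B, or 4.38, 8.24, 9.82 and 8.77 CPM. The groups did not overlap, but WT replicate 2 and library B were within counting error of each other, with exact 95% Poisson intervals of 7.03 to 9.61 and 7.52 to 10.2 CPM (these cover counting error only). WT replicate 1 was the low library, and the log2 fold change of 0.56 (standard error 0.57, edgeR adjusted p = 0.888) was 0.15 without it. The ratio of Crabp1 to Crabp2 in FPKM was 26.7 and 8.56 in WT, 1.67 in library A and 5.99 in library B. Crabp1 thus exceeded Crabp2 in all 4 libraries, and each Tex11PM/Y ratio was lower than each WT ratio.

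**Figure D2:**
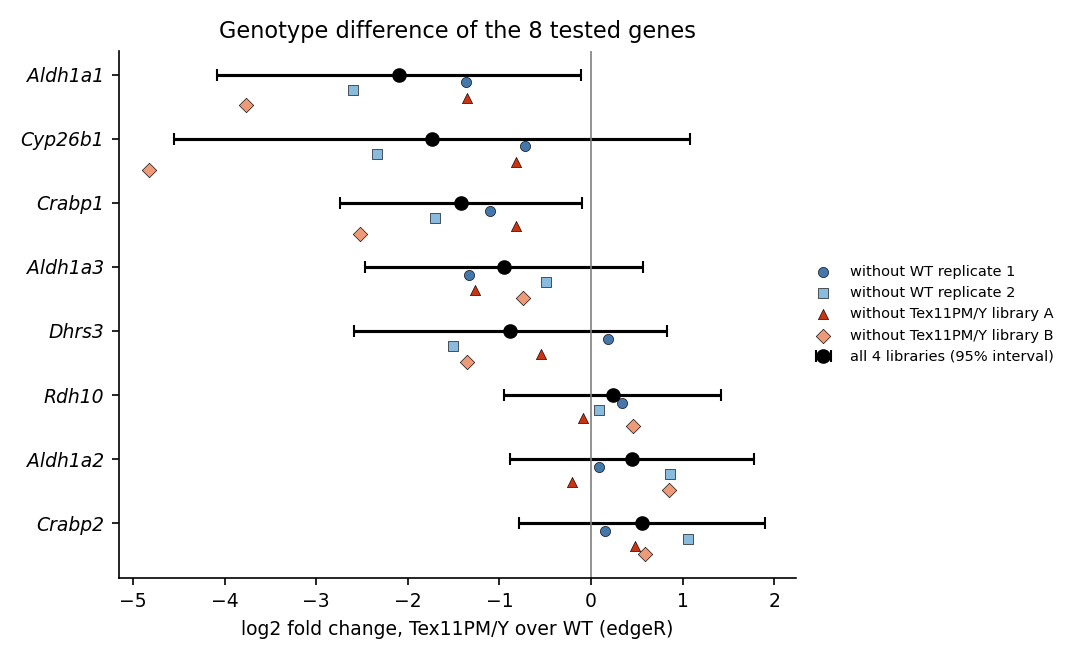
Log2 fold change of Tex11PM/Y over WT for the 8 tested genes, with 95% intervals from the edgeR fit of all 4 libraries (black) and the value without each library in turn (coloured points). The intervals of Crabp1 (-2.74 to -0.10) and Aldh1a1 (-4.09 to -0.11) lie below 0 before adjustment for multiple tests, and the other 6 cross it.

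The 3 retinal dehydrogenases, which carry out the last step of synthesis, had different patterns over the libraries. Aldh1a1 (ENSMUSG00000053279.8, plus strand of chromosome 19, 20492715 to 20643465) had 448 and 213 counts in WT, 27 in library A and 141 in library B, or 25.2, 10.8, 1.36 and 7.03 CPM. Both Tex11PM/Y libraries were below both WT libraries, and the highest and lowest libraries differed by 18.5-fold. WT libraries averaged 17.97 ± 10.2 CPM and Tex11PM/Y libraries 4.19 ± 4.01 CPM (SD, n = 2 per genotype), with a log2 fold change of -2.10 (standard error 0.84, 95% interval -4.09 to -0.11, edgeR adjusted p = 0.884). The Tex11PM/Y libraries differed from each other by 5.17-fold and the WT libraries by 2.34-fold. The log2 fold change was -1.37 without WT replicate 1 and -1.35 without library A. It was -3.77 without library B, where it passed the threshold (edgeR adjusted p = 0.0197).

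Aldh1a2 (ENSMUSG00000013584.5, plus strand of chromosome 9, 71215789 to 71296243) had 148 and 282 counts in WT, 418 in library A and 196 in library B, or 8.32, 14.3, 21.1 and 9.77 CPM. The groups overlapped, since library B lay between the WT libraries. The log2 fold change of 0.45 had a standard error of 0.57 (edgeR adjusted p = 0.903), and without library A it turned to -0.21. Aldh1a3 (ENSMUSG00000015134.15, minus strand of chromosome 7, 66390890 to 66427517) had 78 and 155 counts in WT, 75 in library A and 51 in library B, or 4.38, 7.84, 3.78 and 2.54 CPM. In CPM both Tex11PM/Y libraries were below both WT libraries. Yet WT replicate 1 and library A were within counting error, with exact 95% Poisson intervals of 3.46 to 5.47 and 2.97 to 4.73 CPM. In the authors' TPM values library A (2.97) lay above WT replicate 1 (2.45), so on that scale the groups overlapped. Its log2 fold change of -0.95 (standard error 0.65, edgeR adjusted p = 0.884) went to -0.50 without WT replicate 2.

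Per length, the make-up of the 3 enzymes varied more between libraries than their total. The summed FPKM of Aldh1a1, Aldh1a2 and Aldh1a3 was 12.2 and 11.5 in WT, 9.24 in library A and 6.97 in library B. Aldh1a1 made up 69.9% and 37.8% of it in the WT libraries and 5.64% and 38.1% in libraries A and B. Aldh1a2 made up 21.96%, 44.9%, 83.9% and 52.0%. WT replicate 2 and library B thus had nearly the same Aldh1a1 share, and the wide values were those of WT replicate 1 and library A. Aldh1a3 was the smallest share in WT replicates 1 and 2 and in library B, with 8.09%, 17.3% and 9.89%, and held 10.5% in library A, above Aldh1a1 there.

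**Figure D3:**
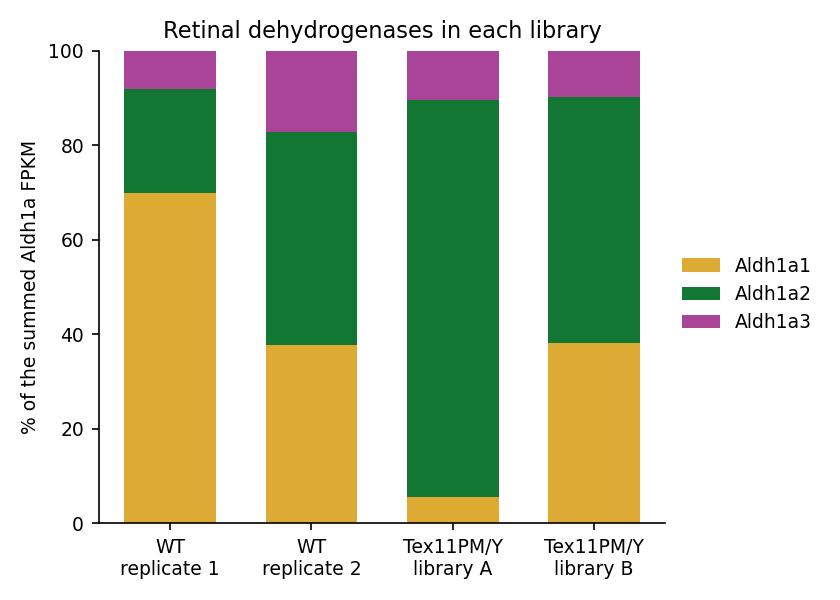
Percent of the summed Aldh1a1, Aldh1a2 and Aldh1a3 FPKM taken by each gene, 1 stacked bar per library. Aldh1a1 takes 69.9% in WT replicate 1 and 5.64% in Tex11PM/Y library A, while WT replicate 2 and library B have 37.8% and 38.1%.

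For both enzymes of the first, reversible step the genotypes overlapped. Rdh10 (ENSMUSG00000025921.7, plus strand of chromosome 1, 16105774 to 16133734), which oxidises retinol to retinal, had 183 and 171 counts in WT, 266 in library A and 178 in library B, or 10.3, 8.65, 13.4 and 8.87 CPM. It was the steadiest of the 9 genes, with 1.55-fold between its highest and lowest library, and the groups overlapped. Its log2 fold change of 0.23 (standard error 0.51, 95% interval -0.95 to 1.42, edgeR adjusted p = 0.947) went to -0.09 without library A.

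Dhrs3 (ENSMUSG00000066026.14, plus strand of chromosome 4, 144892827 to 144928209), the reductase that turns retinal back to retinol and is known as a gene induced by retinoic acid, had 227 and 78 counts in WT, 67 in library A and 114 in library B. These were 12.8, 3.94, 3.37 and 5.68 CPM, so WT replicate 1 was high and library B lay between the WT libraries. The log2 fold change of -0.88 (standard error 0.73, edgeR adjusted p = 0.884) turned to 0.18 without WT replicate 1. The ratio of Rdh10 to Dhrs3 in FPKM was 0.414 and 1.42 in WT, 2.39 in library A and 1.02 in library B, and the groups overlapped.

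Of the 2 enzymes of breakdown, Cyp26b1 had the widest spread of the 9 genes and Cyp26a1 was barely detected. Cyp26b1 (ENSMUSG00000063415.12, minus strand of chromosome 6, 84571414 to 84593908), known for shielding germ cells of the fetal testis from retinoic acid, had 337 and 122 counts in WT, 9 in library A and 142 in library B. In CPM these were 18.9, 6.17, 0.453 and 7.08. Library A stood far below the others, and library B lay between the WT libraries. The Tex11PM/Y libraries differed by 15.6-fold and all 4 libraries spanned 41.8-fold. In the fit the log2 fold change was -1.73 (standard error 1.18, 95% interval -4.55 to 1.08, edgeR adjusted p = 0.884). It was -0.72 without WT replicate 1 and -0.82 without library A. Without library B, with library A as the lone Tex11PM/Y library, it was -4.82 and passed the threshold (edgeR adjusted p = 0.0158). In that fit 3 of the retinoic acid genes, Aldh1a1, Crabp1 and Cyp26b1, were called lower, beside 2.37% of the 18765 genes it tested.

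Cyp26a1 (ENSMUSG00000024987.6, plus strand of chromosome 19, 37697798 to 37701536), the most readily retinoic-acid-induced of the breakdown enzymes in many cell types, had 7 and 3 counts in WT, 15 in library A and 8 in library B. Its level was between 0.045 and 0.258 FPKM, and it did not pass the filter on low counts. The exact 95% Poisson intervals of WT replicate 1 (0.158 to 0.810 CPM) and library B (0.172 to 0.785 CPM) lay almost on each other, while those of WT replicate 2 (0.0313 to 0.443 CPM) and library A (0.423 to 1.25 CPM) barely overlapped. Both Tex11PM/Y libraries were above both WT libraries, by 1 count between WT replicate 1 and library B. With no filter on low counts the fit gave it 1.04 on the log2 scale (standard error 1.06, edgeR adjusted p = 0.871). The ratio of Cyp26b1 to Cyp26a1 in FPKM was 20.9 and 25.9 in the WT libraries, 0.339 in library A and 7.29 in library B, each from few Cyp26a1 counts.

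The start of Cyp26a1 is shown because it was the only one among the members found in the RefSeq promoter table (build GRCm38.p6, the mm10 assembly) to hold a pair of retinoic acid receptor half-sites in the searched window. The table held 6 of the 9 genes, in 9 windows, and not Crabp2, Aldh1a3 or Rdh10. The 250 bases before each start were searched on both strands for direct repeats of the half-site AGGTCA, the related half-site AGTTCA, a variant GGGTCA and a further variant GGTTCA, in any combination, spaced by 1, 2 or 5 bases. The 240 bases at chr19:37697558-37697797 on the plus strand, up to the gene start given in the count table, follow, with the half-sites in capitals.

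Cyp26a1: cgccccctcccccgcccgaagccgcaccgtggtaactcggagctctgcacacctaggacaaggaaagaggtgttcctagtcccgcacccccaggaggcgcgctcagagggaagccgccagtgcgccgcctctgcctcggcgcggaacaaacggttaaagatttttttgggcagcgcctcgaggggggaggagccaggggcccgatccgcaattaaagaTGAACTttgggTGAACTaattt

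The repeat lies from 37697776 to 37697792 on the minus strand, where each half-site reads AGTTCA, with a spacing of 5 bases. It ends 6 bases before the gene start in the count table. A repeat at any of the 3 spacings was found in 140 of 32851 windows of the table (0.426%), and one spaced by 5 bases in 29 (0.0883%). A half-site, alone or in a repeat, is common, in 38.6% of windows. It was present in 2 of the 9 windows of the members, 1 of Aldh1a1 and that of Cyp26a1 with the repeat. The match describes the sequence only: the gene was near its detection limit in all 4 libraries, and no readout of receptor binding was analysed here.

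Over the 4 libraries the tested genes fell in different orders. Crabp1, Aldh1a1, Cyp26b1 and Dhrs3 were each highest in WT replicate 1 and lowest in library A, an order of extremes that 21.3% of all tested genes had. Crabp2 and Aldh1a2 were the reverse, highest in library A and lowest in WT replicate 1, as were 20.9% of all tested genes. Likeness was measured as the root-mean-square difference of log2 CPM over the 4 libraries, after each gene was centred on its own mean. By it the closest members were Crabp2 and Aldh1a2 (0.353) and the farthest Aldh1a2 and Cyp26b1 (2.37). The carriers Crabp1 and Crabp2 were 1.39 apart, and Crabp1 was closer to Aldh1a1 (0.488). With only 4 libraries, which all genes share, such values are a description.

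The same 4 libraries ordered markers of other cell types. Of the 19 fibroblast markers 17 were tested, and all 17 were highest in WT replicate 1 and lowest in library A, the extremes also seen for Crabp1, Aldh1a1, Cyp26b1 and Dhrs3. Col1a1, a collagen chain, had 4710 and 995 CPM in WT, 102 in library A and 1531 in library B. Tcf21 was at 0 in both WT libraries with 1 count in each Tex11PM/Y library, and S100a4 was at 0 in library A. The same root-mean-square difference was taken between each gene and the mean log2 CPM of each of the 7 marker lists. Of the lists, the fibroblast list was nearest to Cyp26b1 (0.207) and to Aldh1a1 (0.446). Crabp1 was nearest to the peritubular myoid list (0.296, against 0.750 from the fibroblast list). Dhrs3 was also nearest to the myoid list (0.452) and was farther from the fibroblast list (1.25) than from the germ cell list (0.831). The measure depends on the size of the swings as well as on their order. Dhrs3 ranked the libraries as the fibroblast list did. The germ cell list mean was instead lowest in WT replicate 1 and highest in library A. Of the 15 germ cell markers only 5 had those extremes, and 2 had the reverse. Crabp2, Aldh1a2, Aldh1a3 and Rdh10 lay between 1.73 and 2.19 from the fibroblast list. They lay between 0.259 and 0.592 from the germ cell list, but as near to the Sertoli list (0.271 to 0.455). They were also close to the endothelial (0.283 to 0.612) and Leydig lists (0.410 to 0.637), so their nearness is not particular to germ cell markers. Only 8 of 12 Sertoli, 5 of 7 endothelial and 2 of 7 Leydig markers had enough counts to be tested. The mean log2 CPM of all these lists moved little between libraries. It ran from 6.72 to 6.98 for the germ cell list and from 0.698 to 1.13 for the Sertoli list. For the endothelial list it ran from 0.626 to 0.923, and for the Leydig list from -1.65 to -1.24. A gene with small swings lies near any such list, so this nearness tells little about those cells, germ cells included. In bulk RNA, fewer cells of a type and less RNA per cell cannot be told apart, and the part of fibroblast RNA in the levels of these genes was not tested.

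**Figure D4:**
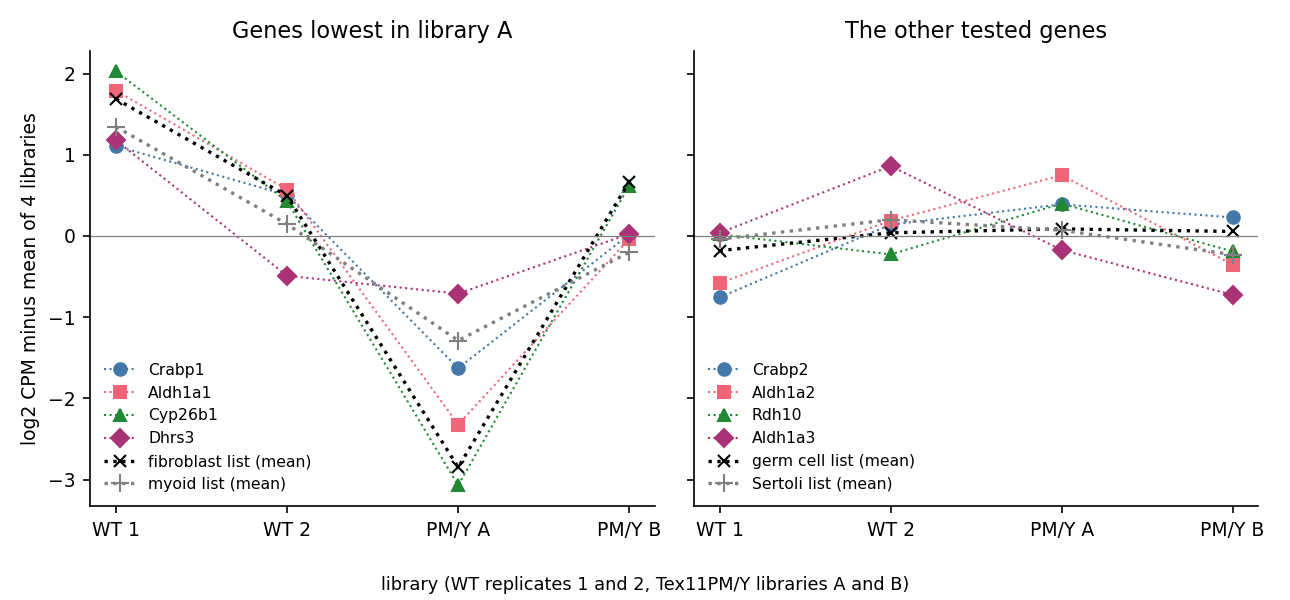
Log2 CPM of the 8 tested genes in each library, relative to the gene's own mean over the 4 libraries, with list means as crosses (left: fibroblast in black and peritubular myoid in grey; right: germ cell in black and Sertoli in grey). Dotted lines only join the values of a gene or list, since libraries have no order. The 4 genes on the left are all lowest in library A, with Cyp26b1 closest to the fibroblast mean (0.207) and Crabp1 and Dhrs3 closest to the myoid mean (0.296 and 0.452), and those on the right stay nearer to 0.

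Markers of macrophages, cells that also lie in the testis interstitium, made up 0.0646% and 0.0555% of WT counts, 0.00271% in library A and 0.132% in library B. All 12 were lowest in library A, as were Crabp1, Aldh1a1, Cyp26b1 and Dhrs3, beside 34.4% of all tested genes. The sum of the 12 macrophage markers was highest in library B, as none of the 8 tested genes was. Lyz2, a lysozyme, had 530 and 417 CPM in WT, 13.1 in library A and 1052 in library B. The 7 markers of peritubular myoid cells, the contractile cells of the tubule wall, took 0.0219% and 0.00446% of counts in WT. They took 0.00120% and 0.00411% in libraries A and B. Acta2 had 178, 24.3, 2.72 and 22.1 CPM, and supplied most of the 234 CPM summed over the 7 in WT replicate 1. Of the 7 myoid markers, 4 (57.1%) were highest in WT replicate 1 and lowest in library A, beside 21.3% of all tested genes. The 12 Sertoli cell markers took between 0.0536% and 0.0707%, most of it Dmrt1, which spermatogonia also express, and the defining receptor gene Fshr was at 0 in all 4 libraries. Leydig cell markers took at most 0.00151% of counts, with Hsd3b1, Insl3 and Lhcgr each at 0 in at least 1 library, and endothelial markers at most 0.00222%. The part of these cells in the results was not tested either.

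By the same measure, genes outside the family could be ranked for likeness to each member among 10892 tested genes of sufficient level. Closest to Crabp1 were Nfkbia (0.0578), Vopp1 and Parva. Closest to Crabp2 were Cse1l (0.00901), Slc25a26 and Nos1, and closest to Aldh1a2 were Pum2 (0.0284), Ppwd1 and Peg10. Aldh1a1 had no gene so near, with Gpx8 (0.09997), Cped1 and Gria3 as the closest, and neither did Aldh1a3, with Chga (0.109), Pdgfa and Plb1. The nearest to Rdh10 were Snapc3 (0.0183), Klc2 and Slc22a5, and the nearest to Dhrs3 were Gprc5b (0.0511), Ifi30 and Slc50a1. Cyp26b1 was closest to Tpp1 (0.0566), to Thy1 (0.0585) and to Kif1a. Thy1, a surface protein that is used as a marker of both fibroblasts and SSCs and stands in the fibroblast list here, had 160 and 56.3 CPM in WT, 4.68 in library A and 57.6 in library B.

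The rest of the pathway gave no call either. Of 60 other retinoid genes, 46 were tested, of which 16 were higher and 30 lower in Tex11PM/Y in the fit and 0 passed the threshold. Their median log2 fold change was -0.18. Over all 17262 genes tested, 8810 were higher and 8452 lower, with a median of 0.01. Without library B, 3 of the 49 pathway genes then tested passed, beside 2.76% of all genes in that fit. They were Fabp5, Rxrg and Tgm2, of which Rxrg and Tgm2 are named here after their values were seen.

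Before synthesis, 5 of 9 genes of retinol uptake, carriage and storage were tested, with 2 higher and 3 lower. Rbp4, the carrier of retinol in blood, had 5.75 and 7.25 FPKM in WT, 3.21 in library A and 5.58 in library B. In FPKM both Tex11PM/Y libraries were thus below both WT libraries (log2 fold change -0.75, standard error 0.58). In TPM library B (14.8) lay above WT replicate 1 (14.3). Rbp7, and Dgat1, which can esterify retinol, had groups that overlapped. Stra6, a retinol importer, and Lrat, the main retinol-esterifying enzyme, had too few counts to be tested, though Lrat had 31 counts in library A against 0, 1 and 4 elsewhere. Among 13 tested of 20 other dehydrogenases and reductases, 4 were higher and 9 lower. Adh5 was the most abundant of them, with 56.0, 59.2, 69.1 and 53.9 FPKM in the 4 libraries, Rdh11 had a log2 fold change of -0.81 (standard error 0.45), and Rdh13 and Rdh14 had values of 0.11 and -0.16.

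Fabp5, a fatty acid carrier that can also take retinoic acid to the nucleus, was the closest to Crabp1 in level among the other binding and breakdown genes. It had 1447 and 657 counts in WT, 112 in library A and 1166 in library B, or 60.7, 27.6, 4.70 and 50.3 FPKM. The groups overlapped, and library A was low, as it was for Crabp1 (log2 fold change of Fabp5 -0.84, standard error 1.08, edgeR adjusted p = 0.906). Cyp1b1, a cytochrome P450 that can also act on retinoids, had a log2 fold change of -0.43 and Cyp2s1 one of -0.05. Cyp26c1, the remaining Cyp26 enzyme, had at most 9 counts and was not tested.

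Of 6 receptors 5 were tested, with 3 higher and 2 lower and a median log2 fold change of 0.05. Rarg, Rxra and Rxrb, which with Rara make up most receptor transcript here, had log2 fold changes of 0.05, -0.02 and -0.07. Rara had 18.3 and 14.4 FPKM in WT, 32.1 in library A and 21.9 in library B, with both Tex11PM/Y libraries above both WT libraries (fold change 0.57 on the log2 scale, standard error 0.35, edgeR adjusted p = 0.884). Rxrg, the least abundant of the tested receptors, had 5 and 8 counts in WT, 97 in library A and 25 in library B (fold change 3.13 on the log2 scale, standard error 0.92, edgeR adjusted p = 0.884). Rarb, a receptor gene that retinoic acid induces in many cells, had 0 and 3 counts in WT, 2 in library A and 3 in library B, so at this depth no difference could be detected. Of the 6 cofactors, 4 were higher and 2 lower, with log2 fold changes of 0.50 for the corepressor Ncor1 and 0.42 and 0.04 for the coactivators Ncoa2 and Ncoa3.

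**Figure D5:**
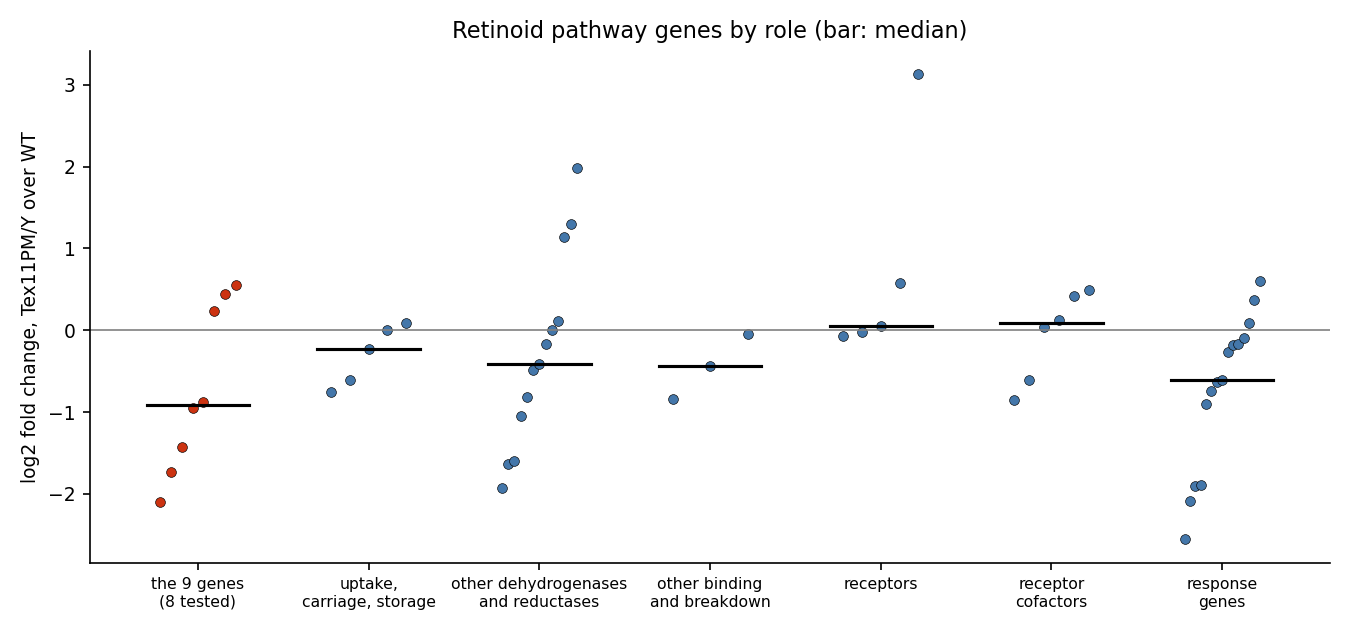
Log2 fold change of Tex11PM/Y over WT for the 8 tested members and for the tested genes of 6 groups of the pathway, 1 point per gene, with the group median as a bar. Medians are -0.92 for the members, 0.05 for receptors, 0.09 for cofactors and -0.60 for response genes, and none of the points passed the threshold.

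Of 18 genes known to respond to retinoic acid, 15 were tested, with 3 higher and 12 lower, a median log2 fold change of -0.60 and 0 past the threshold, beside 8810 higher and 8452 lower of all genes tested. Stra8, the gene that retinoic acid switches on before meiosis, had 5.58 and 11.8 FPKM in WT, 9.70 in library A and 5.27 in library B, so the groups overlapped. Rec8, a meiotic cohesin, Sohlh1, a transcription factor of spermatogonia, and Ret, a receptor of the SSC growth factor GDNF, also had groups that overlapped, with log2 fold changes of -0.17, 0.10 and -0.19. Plat, the tissue plasminogen activator, had 15.7 and 14.2 FPKM in WT, 7.35 in library A and 10.1 in library B (fold change -0.90 on the log2 scale, standard error 0.37, edgeR adjusted p = 0.884). Tgm2, a transglutaminase that retinoic acid induces in several cell types, had 945 and 321 counts in WT, 51 in library A and 323 in library B. It was highest in WT replicate 1 and lowest in library A, as Crabp1, Aldh1a1, Cyp26b1 and Dhrs3 were. These extremes were seen in 12 of the 46 other pathway genes tested (26.1%), beside 21.3% of all tested genes.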

How the data were processed

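RNA-seq libraries of 2 WT and 2 Tex11PM/Y SSC samples were used. The library kit selected poly(A) RNA and is not described as strand-specific, per the labels' protocols. The authors deposited whole-number read counts per gene, not normalized, and FPKM and TPM values of the same libraries, per the file headers. Tools listed in the submitters' processing notes are StringTie, featureCounts, STAR, fastp and DESeq2, without roles or versions, with mm10 as build; the annotation used for counting is not stated there. Both Tex11PM/Y columns carry 1 name, so libraries A and B, in column order, cannot be tied to replicate numbers.

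Counts were fitted with edgeR 4.0.16 under R 4.3.3 (genes kept by filterByExpr, TMM scaling, robust quasi-likelihood F test, genotype as the only term), two-sided, with Benjamini-Hochberg adjustment over 17262 genes and a threshold of 0.05. CPM values use TMM library sizes, and log2 CPM values a prior count of 2. The common biological coefficient of variation was 43.4%. Levels are compared between genes in FPKM only. No annotated gene shares exon bases with any of the 9 genes. Alternatives were other count filters, scaling by library size alone or by DESeq2 size factors, DESeq2 1.42.0 itself, limma 3.58.1 on log2 FPKM or TPM, and leaving out each library.

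The 9 genes, the pathway lists and the marker lists were chosen with earlier results of these data known. Of the other pathway genes, those named are the 4 highest in mean FPKM per list and any past the threshold, of which 2 are not reported here; Rxrg, Tgm2, Stra6, Lrat, Stra8 and Rarb are named beside them after their values were seen. In marker lists, named genes came from the 3 highest in mean FPKM and those at 0. The genes most like a member are the 3 with the smallest difference among tested genes of mean CPM at least 5, predicted genes and pseudogenes left out.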

Additional observations from a re-analysis of the deposited data

How the results depend on the processing

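Over 13 alternatives for each of the 8 tested genes, 98 of 104 log2 fold changes kept their direction and their side of the threshold. The other 6 came from leaving out a library: Aldh1a2 turned to -0.21 and Rdh10 to -0.091 without Tex11PM/Y library A, Dhrs3 turned to 0.18 without WT replicate 1, and Crabp1, Aldh1a1 and Cyp26b1 passed the threshold without library B. Leaving out each library in turn gave ranges of -0.21 to 0.86 for Aldh1a2, -0.091 to 0.45 for Rdh10 and -1.51 to 0.18 for Dhrs3. It gave 0 to 3 of the 9 genes past the threshold, 0 to 3 of the other pathway genes, and 0 to 518 of all genes, the last of each without library B. Over all genes, DESeq2 called 2 and the fit with no filter on low counts 50, none of them among the 9, against 0 in the reported fit, which had 171 higher and 295 lower genes at an unadjusted p under 0.05. No paired analysis was possible because both Tex11PM/Y columns carry the same replicate number. With 2 libraries a group and a biological coefficient of variation of 43.4%, a gene that misses the threshold is not shown to be equal. Depth limits Cyp26a1, at 3 to 15 counts.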
